A study of Mus musculus with 16 samples.

Results

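The interferon-gamma (IFN-γ) production programme was followed here through 10 genes, which are *Ifng* itself, the transcription factors *Tbx21* and *Eomes*, the cytokine receptor chains *Il12rb2*, *Il18r1*, *Il18rap* and *Il2rb*, and the effector genes *Xcl1*, *Prf1* and *Nkg7*. The genes were chosen by symbol, and each of the 10 was found once among the 23356 genes of the expression table. Their values in this table were known when they were chosen, so levels and differences are given as a description, with no test and no p-value.

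RNA was sequenced from bone marrow-derived dendritic cells (BMDCs), which are cultures grown from mouse bone marrow with the growth factors GM-CSF and IL-4. The cells came from wild-type mice and from *Tmem173*-/-, *Irf1*-/- and *Irf3/7*-/- mice, which lack STING, IRF1, or IRF3 together with IRF7. They were left untreated or received c-di-GMP, a bacterial cyclic dinucleotide sensed by STING, at 25 µg/ml for 18 h. There were 16 samples in 8 conditions with 2 samples each, and none of the 4 genotypes carried a Cre or a reporter transgene in the labels. No cell-type-specific deletion is named, and no step that sorted DCs from the other cells of the cultures is described.

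IFN-γ is the main cytokine of type 1 immunity, and it is made mostly by natural killer (NK) cells, CD8 T cells and T helper 1 cells. DCs drive its production by secreting IL-12, IL-18 and IL-15, which signal through receptor chains on those lymphocytes. The transcription factors T-bet and Eomesodermin then open the *Ifng* locus and switch on receptor and granule genes, and IFN-γ acts back on DCs and macrophages through its own receptor.

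Each condition had a single deposited value per gene in FPKM (fragments scaled to transcript length and library size), which combined both samples, and an interval given with it. The spread between the 2 samples is therefore unknown. A difference was called when it was more than 2-fold on the log2(FPKM + 0.1) scale, the 2 intervals did not overlap, and 1 FPKM was reached in either condition. Log2 differences below are on this scale, which understates the change of genes near 0. Comparisons that used the same wild-type or knockout condition share its samples.

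The cultures carried the main genes of DCs, with *H2-Ab1* between 278 and 890 FPKM, *Cd74* between 3336 and 4983 FPKM and *Itgax* (CD11c) between 135 and 369 FPKM, but *Flt3* was at most 2.75 FPKM and *Cd209a* at most 3.10 FPKM, with 0 in treated wild-type BMDCs. *Tmem173* was at 8.97 and 7.49 FPKM in *Tmem173*-/- BMDCs and between 77.0 and 118 FPKM elsewhere. *Irf1* was at 25.9 FPKM in untreated and 116 FPKM in treated *Irf1*-/- BMDCs, and wild-type BMDCs had 149 and 245 FPKM. In *Irf3/7*-/- BMDCs *Irf7* was at 1.07 and 4.97 FPKM, and wild-type BMDCs had 15.2 and 687 FPKM. *Irf3* was at 7.74 FPKM without and 20.2 FPKM with c-di-GMP there, the second of which goes against the label, since wild-type BMDCs had 19.9 and 15.8 FPKM. Exons outside a deleted part still count in a gene's FPKM, so genotypes are named by their labels throughout, and each direction drawn from the cells labelled *Irf3/7*-/- rests on that label.

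*Ifng* (chromosome 10, 118441046 to 118445892, GRCm38, plus strand) stood at 34.6 FPKM (23.4 to 45.0) in untreated and 299 FPKM (205 to 367) in treated wild-type BMDCs. In *Irf3/7*-/- BMDCs it had 44.0 FPKM (30.0 to 53.5) without and 1155 FPKM (777 to 1421) with c-di-GMP. In *Irf1*-/- BMDCs it had 1.26 FPKM (0.659 to 1.84) without and 25.5 FPKM (17.4 to 31.4) with c-di-GMP. In both *Tmem173*-/- conditions *Ifng* was listed at 0, so no fold is given against them. Treated *Irf3/7*-/- BMDCs were highest and treated wild-type BMDCs second, and neither interval overlapped another. The next 3 conditions in the order were untreated *Irf3/7*-/-, untreated wild-type and treated *Irf1*-/- BMDCs, and each overlapped its neighbour, so that *Irf1*-/- BMDCs with c-di-GMP reached a level near that of wild-type BMDCs without it.

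*Ifng* rose with c-di-GMP in each genotype that expressed it. The rise was 8.64-fold in wild-type, 20.2-fold in *Irf1*-/- and 26.2-fold in *Irf3/7*-/- BMDCs, which are log2 differences of 3.11, 4.23 and 4.71. The level after c-di-GMP was 11.7-fold lower in *Irf1*-/- and 3.86-fold higher in *Irf3/7*-/- than in wild-type BMDCs, and both differences were called. Without c-di-GMP it was already 27.4-fold lower in *Irf1*-/- than in wild-type BMDCs, while the untreated *Irf3/7*-/- and wild-type intervals overlapped. Whether the rises differed between genotypes was not tested, because no replicate values were used.

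**Figure D1:**
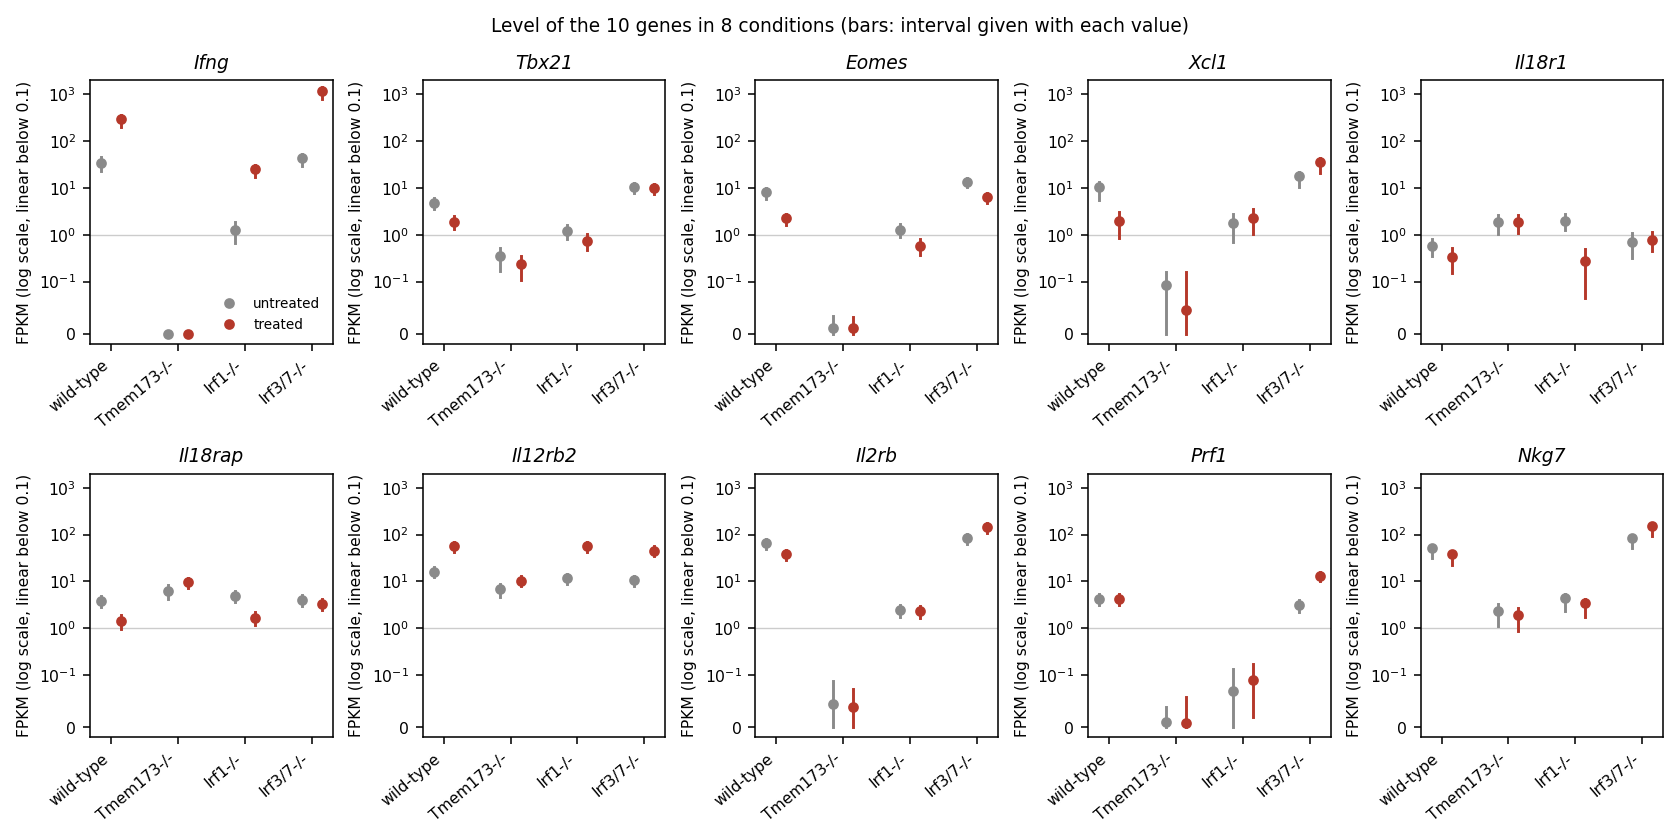
FPKM (log axis, linear below 0.1) of the 10 genes in 4 genotypes, untreated in grey and treated with c-di-GMP in red; points are the value that combines 2 samples, bars are the interval given with it, and the grey line marks 1 FPKM. *Ifng* runs from 0 in *Tmem173*-/- to 1155 FPKM in treated *Irf3/7*-/- BMDCs, and *Il12rb2* and the 2 IL-18 receptor genes are the members that stay above 0.1 FPKM in every condition beside *Tbx21* and *Nkg7*.

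The summed level of T cell genes had the order of *Ifng* between the genotypes, but was lower in treated than in untreated BMDCs of wild-type and *Irf1*-/- mice, where *Ifng* rose. Of 15 T cell markers, 14 reached 1 FPKM in untreated and 12 in treated wild-type BMDCs, 14 in each *Irf3/7*-/- condition, 6 in untreated and 5 in treated *Irf1*-/- BMDCs, and 2 in each *Tmem173*-/- condition. Their summed level was 197 and 111 FPKM in wild-type, 22.8 and 20.3 FPKM in *Tmem173*-/-, 72.4 and 61.6 FPKM in *Irf1*-/-, and 221 and 338 FPKM in *Irf3/7*-/- BMDCs (untreated and treated). *Thy1* alone had 89.5 and 40.5 FPKM of this in wild-type and 76.8 and 88.6 FPKM in *Irf3/7*-/- BMDCs. It made up most of the sum in *Irf1*-/- (58.8 and 47.2 FPKM) and *Tmem173*-/- BMDCs (16.3 and 13.7 FPKM). *Cd8a*, the CD8 alpha chain, had 21.8 and 16.5 FPKM in wild-type, 0.497 and 0.414 FPKM in *Tmem173*-/-, 1.70 and 1.40 FPKM in *Irf1*-/-, and 33.2 and 60.8 FPKM in *Irf3/7*-/- BMDCs. *Cd4* was at most 0.154 FPKM in any condition, and *Trat1* was the marker listed at 0, in untreated *Tmem173*-/- BMDCs. In treated *Irf3/7*-/- BMDCs 13 of the 14 markers tested were higher than in treated wild-type BMDCs, and 8 of 12 were lower in treated *Irf1*-/- BMDCs. The shares over all genes tested were 4.61% higher in the first comparison and 4.91% lower in the second. Fewer cells of a type and less RNA per cell cannot be told apart in these cultures. The part of T cell genes in the *Ifng* levels was not tested, and the ratios given below are a description.

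Of 10 NK cell markers, 5 reached 1 FPKM in untreated and 4 in treated wild-type BMDCs, 6 in each *Irf3/7*-/- condition, 1 in untreated and 2 in treated *Irf1*-/- BMDCs, and 3 in each *Tmem173*-/- condition. Their summed level ran from 4.06 FPKM in treated *Irf1*-/- to 48.3 FPKM in untreated *Tmem173*-/- BMDCs, and *Sh2d1b1* made up 39.0 FPKM of the latter. *Ncr1* (NKp46), 1 of these 10 markers, was at 0.193 and 0.290 FPKM in wild-type and 0.397 and 0.661 FPKM in *Irf3/7*-/- BMDCs, and at 0 in both *Irf1*-/- conditions and in untreated *Tmem173*-/- BMDCs. With c-di-GMP in *Irf3/7*-/- BMDCs, 10.2% of all genes tested were called higher and 7.68% lower. Of the 7 NK cell markers tested in the same comparison, 4 were called higher and 1 lower. *Klrd1* reached 14.0 FPKM and *Klrk1* 8.60 FPKM there, while *Klrb1c* went from 4.05 to 0.618 FPKM. *Klrd1* (4.83 and 4.01 FPKM, untreated and treated) and *Klrk1* (3.83 and 3.60 FPKM) were also present in *Tmem173*-/- BMDCs, where *Ifng* was listed at 0. Basophil and mast cell markers were also higher in treated *Irf3/7*-/- than in treated wild-type BMDCs, in 7 of 7 genes, with a summed level of 262 against 84.7 FPKM. Without c-di-GMP 6 of 7 were already higher than in wild-type BMDCs, with 170 against 71.0 FPKM. None of the 7 was called with c-di-GMP in *Irf3/7*-/- BMDCs, where 17.9% of all genes tested were called. Over all genes tested, 4.61% were higher in the treated and 1.17% in the untreated comparison with wild-type BMDCs. The part of either list in the *Ifng* levels was not tested.

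The level of *Ifng* was then set against the summed FPKM of the CD3 chains *Cd3e*, *Cd3d* and *Cd3g*, which mark T cells. This ratio was chosen after the values were seen, and it was not formed for *Tmem173*-/- BMDCs, where the CD3 chains were near 0. Without c-di-GMP it was 0.974 in wild-type, 0.478 in *Irf1*-/- and 0.932 in *Irf3/7*-/- BMDCs. With c-di-GMP it was 12.8 in wild-type, 12.6 in *Irf1*-/- and 14.0 in *Irf3/7*-/- BMDCs. The treated *Ifng* level differed 45.2-fold between *Irf3/7*-/- and *Irf1*-/- BMDCs, and per CD3 signal it was between 12.6 and 14.0 in the 3 genotypes. How far the ratios of the genotypes lay apart differed with the gene used as denominator, as given below. The rise of *Ifng* with c-di-GMP per CD3 signal was 13.2-fold in wild-type, 26.4-fold in *Irf1*-/- and 15.0-fold in *Irf3/7*-/- BMDCs.

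With each of 7 single genes in the place of the CD3 sum, which were the 3 CD3 chains, *Cd8a*, *Cd8b1*, *Trat1* and the member *Il2rb*, the rise was between 11.4 and 25.9-fold in wild-type, between 21.5 and 34.4-fold in *Irf1*-/- and between 14.2 and 17.6-fold in *Irf3/7*-/- BMDCs. Per *Cd8a*, the treated ratio was 18.1 in wild-type, 18.3 in *Irf1*-/- and 19.0 in *Irf3/7*-/- BMDCs. Per *Trat1*, a T cell receptor adaptor, the treated ratios lay further apart, at 58.9, 22.9 and 43.3 in the same order. The CD3 sum rests on 2.65 and 2.03 FPKM in *Irf1*-/- BMDCs, so the ratios of that genotype are the least precise. Treated *Cd3e* there was at 0.479 FPKM, with an interval of 0.222 to 0.720.

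**Figure D2:**
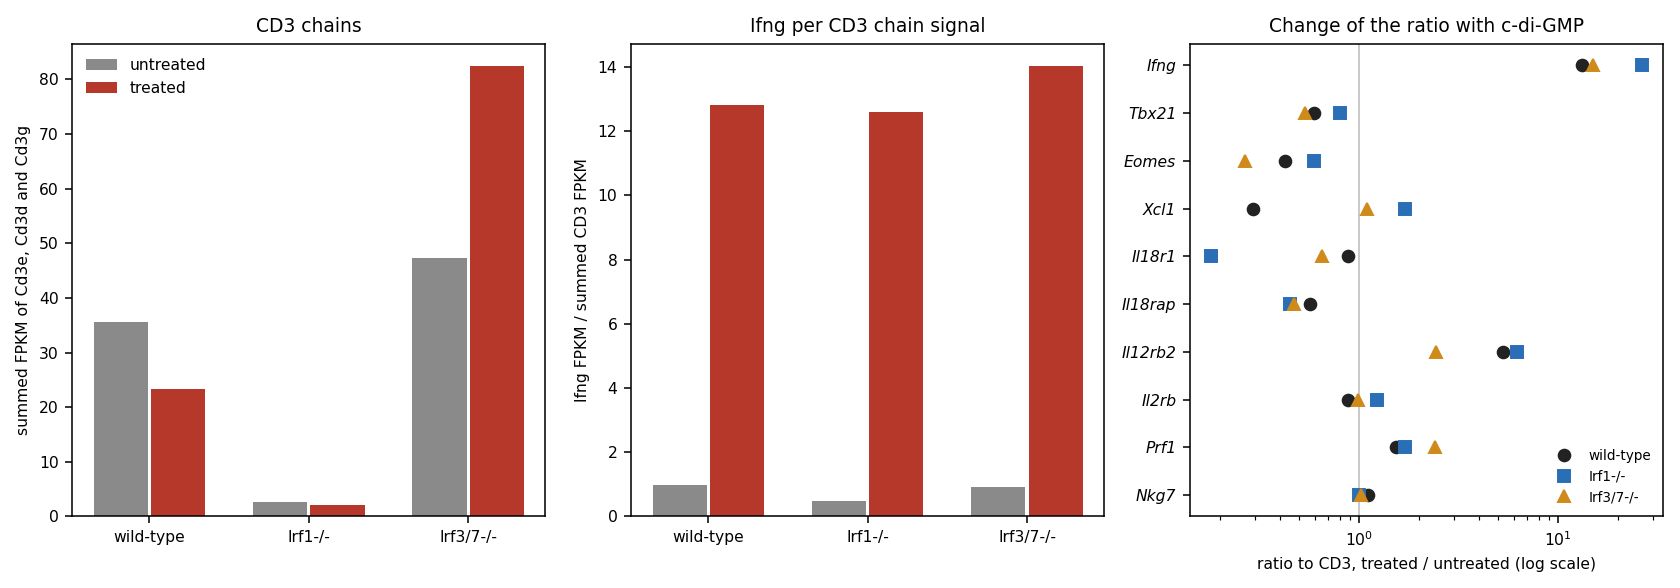
Left, summed FPKM of *Cd3e*, *Cd3d* and *Cd3g* in untreated (grey) and treated (red) BMDCs of 3 genotypes; middle, *Ifng* FPKM divided by that sum; right, the treated ratio divided by the untreated ratio for all 10 genes on a log axis, with a line at no change. The CD3 sum differs widely between genotypes. The *Ifng* ratio in wild-type, *Irf1*-/- and *Irf3/7*-/- BMDCs is 0.974, 0.478 and 0.932 untreated and 12.8, 12.6 and 14.0 treated. *Nkg7* and *Il2rb* lie close to the line on the right.

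The promoters of 4 members are shown because these genes stood for the different patterns among the 10: *Ifng* and *Il12rb2* rose with c-di-GMP in 3 genotypes, *Eomes* fell in 3, and *Xcl1* fell in wild-type BMDCs. The stretches are the 250 bases before the RefSeq start of each gene on GRCm38.p6, written 5′ to 3′ on the gene's strand, with capitals for matches to short motifs. They lie at chr10:118440796-118441045 (plus) for *Ifng*, chr6:67376189-67376438 (minus) for *Il12rb2*, chr9:118477939-118478188 (plus) for *Eomes* and chr1:164935523-164935772 (minus) for *Xcl1*.
Ifng: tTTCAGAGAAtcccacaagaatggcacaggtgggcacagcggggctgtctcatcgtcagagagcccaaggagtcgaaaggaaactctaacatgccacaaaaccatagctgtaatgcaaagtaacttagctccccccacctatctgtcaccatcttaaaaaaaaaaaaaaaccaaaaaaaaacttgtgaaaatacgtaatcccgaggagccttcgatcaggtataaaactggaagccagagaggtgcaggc
Il12rb2: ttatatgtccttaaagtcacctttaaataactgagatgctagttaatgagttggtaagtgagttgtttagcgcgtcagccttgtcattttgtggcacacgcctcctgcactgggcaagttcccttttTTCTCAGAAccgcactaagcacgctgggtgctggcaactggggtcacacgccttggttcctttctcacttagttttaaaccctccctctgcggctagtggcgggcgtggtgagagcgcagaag
Eomes: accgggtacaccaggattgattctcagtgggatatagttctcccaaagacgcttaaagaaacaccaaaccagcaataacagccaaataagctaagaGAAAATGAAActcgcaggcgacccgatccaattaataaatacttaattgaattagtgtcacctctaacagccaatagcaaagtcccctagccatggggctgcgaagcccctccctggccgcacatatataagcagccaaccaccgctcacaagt
Xcl1: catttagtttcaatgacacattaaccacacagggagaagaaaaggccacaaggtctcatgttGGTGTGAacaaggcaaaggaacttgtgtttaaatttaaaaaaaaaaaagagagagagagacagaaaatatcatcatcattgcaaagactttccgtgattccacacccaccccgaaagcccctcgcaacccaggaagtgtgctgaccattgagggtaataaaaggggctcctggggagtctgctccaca

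The motifs were searched on both strands as a STAT element (TTCNNNGAA), an IRF element (GAAANNGAAA), a T-box element (GGTGTGA), an AP-1 element (TGACTCA) and an NF-κB element (GGGANTTTCC). They were found in 7.02%, 2.98%, 3.33%, 4.46% and 0.356% of 32851 promoters of the same length. The capitals mark a STAT element in *Ifng* (249 bases before the start) and in *Il12rb2* (123 bases before it), an IRF element in *Eomes* (154 bases) and a T-box element in *Xcl1* (188 bases). A window was at hand for 9 of the 10 members, with 11 windows in all, and not for *Il2rb*. *Nkg7* held a STAT and a T-box element, 1 of the 3 windows of *Il18r1* held 2 STAT matches, and these windows of *Tbx21*, *Il18rap* and *Prf1* held none of the letters searched. These matches are a description of the letters, and no binding was measured here.

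Neither T-bet nor Eomesodermin, the T-box factors of the programme, rose with c-di-GMP in any genotype. *Tbx21* (T-bet) stood at 4.86 FPKM in untreated and 1.90 FPKM in treated wild-type BMDCs, 0.351 and 0.241 FPKM in *Tmem173*-/-, 1.20 and 0.742 FPKM in *Irf1*-/-, and 10.5 and 9.78 FPKM in *Irf3/7*-/- BMDCs. It fell upon c-di-GMP in wild-type BMDCs, by 1.31 on the log2 scale, and in *Irf3/7*-/- BMDCs the 2 intervals overlapped at the highest level of the 8 conditions. After c-di-GMP *Tbx21* was 5.15-fold higher in *Irf3/7*-/- and 2.56-fold lower in *Irf1*-/- than in wild-type BMDCs. It was the only member called between untreated *Irf3/7*-/- and untreated wild-type BMDCs (log2 difference 1.09). This call and the one in treated *Irf1*-/- BMDCs were lost with a pseudocount of 1 FPKM.

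*Eomes* (Eomesodermin) stood at 8.02 FPKM in untreated and 2.24 FPKM in treated wild-type BMDCs, 1.29 and 0.586 FPKM in *Irf1*-/-, and 13.6 and 6.36 FPKM in *Irf3/7*-/- BMDCs, and it was at 0.0106 and 0.0115 FPKM in *Tmem173*-/- BMDCs. It was lower with c-di-GMP in all 3 genotypes that expressed it, with log2 differences of -1.80 in wild-type, -1.01 in *Irf1*-/- and -1.09 in *Irf3/7*-/- BMDCs, and the intervals did not overlap in any of the 3. The calls in *Irf1*-/- and *Irf3/7*-/- BMDCs were lost with a pseudocount of 1 FPKM. Per CD3 signal *Eomes* was also lower with c-di-GMP in these genotypes, at 0.425 of the untreated ratio in wild-type, 0.596 in *Irf1*-/- and 0.268 in *Irf3/7*-/- BMDCs. The same ratio of *Tbx21* was 0.596, 0.805 and 0.536 in that order. In each of these 3 genotypes *Ifng* was thus higher in the condition in which *Eomes* was lower.

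*Il12rb2* encodes the signalling chain of the IL-12 receptor. It stood at 16.3 FPKM in untreated and 56.3 FPKM in treated wild-type BMDCs, 11.7 and 56.1 FPKM in *Irf1*-/-, 10.5 and 44.9 FPKM in *Irf3/7*-/-, and 6.85 and 10.3 FPKM in *Tmem173*-/- BMDCs. The 3 treated conditions that had STING were highest, overlapped each other, and did not overlap any other condition. *Il12rb2* rose by a log2 difference of 1.78 in wild-type, 2.25 in *Irf1*-/- and 2.08 in *Irf3/7*-/- BMDCs, and was not called in *Tmem173*-/- BMDCs (0.58).

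Per CD3 signal the treated *Il12rb2* level was 2.41 in wild-type, 27.7 in *Irf1*-/- and 0.546 in *Irf3/7*-/- BMDCs. Its relation to the T cell markers was not tested. The gene (chromosome 6, 67291318 to 67376188, minus strand) overlaps *Serbp1* on the other strand over 6419 bases, and the strand setting behind the deposited FPKM is not given in the sources used here. *Serbp1* went from 76.1 to 40.8 FPKM with c-di-GMP in wild-type and from 62.0 to 62.9 FPKM in *Tmem173*-/- BMDCs, and the part of the overlap in the *Il12rb2* level was not tested.

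The 2 chains of the IL-18 receptor, which lie side by side on chromosome 1, had an order of their own. *Il18rap*, the accessory chain, had 3.79 and 1.42 FPKM in wild-type, 6.19 and 9.56 FPKM in *Tmem173*-/-, 4.84 and 1.67 FPKM in *Irf1*-/-, and 4.05 and 3.36 FPKM in *Irf3/7*-/- BMDCs. *Il18r1*, the ligand-binding chain, had 0.582 and 0.335 FPKM in wild-type, 1.85 and 1.88 FPKM in *Tmem173*-/-, 2.01 and 0.279 FPKM in *Irf1*-/-, and 0.693 and 0.790 FPKM in *Irf3/7*-/- BMDCs. Both were thus high in *Tmem173*-/- BMDCs, where *Ifng* was listed at 0. *Il18rap* fell with c-di-GMP in wild-type and *Irf1*-/- BMDCs by 1.36 and 1.48 on the log2 scale, and the first of these calls was lost with a pseudocount of 1 FPKM. *Il18r1* fell in *Irf1*-/- BMDCs by 2.48 on the same scale, and it missed the filter of 1 FPKM in the wild-type comparison.

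Treated *Tmem173*-/- BMDCs had 5.61-fold more *Il18r1* and 6.73-fold more *Il18rap* than treated wild-type BMDCs, and these were the only members that were higher there. In the same comparison 6 of 7 neutrophil markers were higher, where 12.9% of all genes tested were higher. The 7 markers had a median log2 difference of 2.70 and a summed level of 14408 against 1898 FPKM. Most of both sums came from *S100a8* (7513 against 1105 FPKM) and *S100a9* (5974 against 643 FPKM). Each of these *S100a8* values lay above the interval given with it (3722 to 6922 and 538 to 966), so the sums are imprecise. Their part in the receptor levels was not tested.

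*Il2rb*, the beta chain through which IL-2 and IL-15 signal, was among the members with the highest FPKM. It had 65.3 and 37.7 FPKM in wild-type, 0.0439 and 0.0385 FPKM in *Tmem173*-/-, 2.48 and 2.34 FPKM in *Irf1*-/-, and 83.9 and 145 FPKM in *Irf3/7*-/- BMDCs. With c-di-GMP its intervals did not overlap in wild-type BMDCs, where it was lower (log2 difference -0.79), nor in *Irf3/7*-/- BMDCs, where it was higher (0.79), and both stayed under 2-fold and were not called. *Il2rb*, a member chosen with its values known, was 26.3-fold lower in *Irf1*-/- than in wild-type BMDCs before treatment. The ratio of *Ifng* to *Il2rb* was 0.530 in wild-type, 0.509 in *Irf1*-/- and 0.525 in *Irf3/7*-/- BMDCs without c-di-GMP, and 7.93, 10.9 and 7.97 with it. With each other gene of the 7 denominators, the untreated ratio was lower in *Irf1*-/- than in wild-type and *Irf3/7*-/- BMDCs. Per *Cd8a* it was 0.744 in *Irf1*-/-, 1.59 in wild-type and 1.33 in *Irf3/7*-/- BMDCs.

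Among the effector genes, *Nkg7*, a membrane protein of cytotoxic granules, had 52.7 and 38.5 FPKM in wild-type, 2.35 and 1.89 FPKM in *Tmem173*-/-, 4.46 and 3.43 FPKM in *Irf1*-/-, and 86.5 and 155 FPKM in *Irf3/7*-/- BMDCs. It was not called with c-di-GMP in any genotype. Between genotypes it was 11.2-fold lower in treated *Irf1*-/- and 4.02-fold higher in treated *Irf3/7*-/- than in treated wild-type BMDCs. Per CD3 signal *Nkg7* stood between 1.48 and 1.88 in the 6 conditions of these 3 genotypes, the smallest fold between the highest and lowest ratio among the 10 genes.

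*Prf1* encodes perforin, which forms pores in target cells. It had 4.27 and 4.30 FPKM in wild-type, 0.00925 and 0.00692 FPKM in *Tmem173*-/-, 0.0689 and 0.0902 FPKM in *Irf1*-/-, and 3.11 and 13.1 FPKM in *Irf3/7*-/- BMDCs. It rose with c-di-GMP in *Irf3/7*-/- BMDCs (log2 difference 2.04), whereas in wild-type BMDCs the 2 values were nearly equal and their intervals overlapped. In *Irf1*-/- and *Tmem173*-/- BMDCs *Prf1* stayed under 0.1 FPKM, so no fold is given against them.

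*Xcl1* encodes a chemokine that activated lymphocytes secrete together with IFN-γ and that attracts DCs with the receptor XCR1. It stood at 10.4 FPKM (5.62 to 13.2) in untreated and 2.01 FPKM (0.871 to 3.09) in treated wild-type BMDCs, 0.0937 and 0.0463 FPKM in *Tmem173*-/- BMDCs, and 1.75 and 2.27 FPKM in *Irf1*-/- BMDCs. In *Irf3/7*-/- BMDCs it had 18.5 FPKM (10.5 to 21.9) without and 35.5 FPKM (20.9 to 42.8) with c-di-GMP, and these intervals overlapped. *Xcl1* fell in wild-type BMDCs by 2.31 on the log2 scale while *Ifng* rose there, and in the other 2 genotypes that expressed it no difference was called. Treated *Irf3/7*-/- BMDCs had 17.7-fold more *Xcl1* than treated wild-type BMDCs, against 3.86-fold more *Ifng*. Per CD3 signal *Xcl1* went from 0.293 to 0.0864 in wild-type, from 0.660 to 1.12 in *Irf1*-/- and from 0.391 to 0.431 in *Irf3/7*-/- BMDCs.

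Counted over the programme, c-di-GMP in wild-type BMDCs raised 2 members (*Ifng* and *Il12rb2*) and lowered 4 (*Tbx21*, *Eomes*, *Xcl1* and *Il18rap*) of the 9 tested, where 20.5% of all 11201 genes tested were called, 10.5% higher and 9.96% lower. In *Irf1*-/- BMDCs 2 were higher and 3 lower of 9, with 17.5% of all genes called (9.67% higher, 7.81% lower). In *Irf3/7*-/- BMDCs 3 were higher and 1 lower of 9, with 17.9% called (10.2% higher, 7.68% lower). In *Tmem173*-/- BMDCs none of the 4 members tested was called, with 0.0552% of all genes called, and 6 members did not reach 1 FPKM. The only members called higher with c-di-GMP in all 3 genotypes that had STING were *Ifng* and *Il12rb2*, and the only one called lower in all 3 was *Eomes*.

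Against treated wild-type BMDCs, 8 of 9 members tested were higher in treated *Irf3/7*-/- BMDCs, where 7.3% of all genes were called (4.61% higher, 2.69% lower), and the exception was *Il12rb2* (log2 difference -0.32). In treated *Irf1*-/- BMDCs 6 of 9 were lower and none was higher, where 7.56% of all genes were called (2.65% higher, 4.91% lower). The 3 that were not called there were *Xcl1*, *Il18rap* and *Il12rb2*. In treated *Tmem173*-/- BMDCs all 10 were called, 8 lower and 2 higher, where 26.3% of all genes were called (12.9% higher, 13.5% lower).

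Without c-di-GMP, 7 of 10 members were lower and 1, *Il18r1*, was higher in *Irf1*-/- than in wild-type BMDCs, where 4.78% of all genes were called (1.26% higher, 3.52% lower). In untreated *Tmem173*-/- BMDCs 8 were lower and 1 higher of 10, where 11% of all genes were called (5.04% higher, 5.95% lower). In untreated *Irf3/7*-/- BMDCs 1 of 9 was higher, where 2.04% of all genes were called (1.17% higher, 0.863% lower). The excess in treated *Irf3/7*-/- BMDCs was therefore not called before treatment for 7 of the 8 members, although the intervals of *Eomes* did not overlap there either, at a 1.70-fold difference. Between the treated knockouts, 7 of 9 members were higher in *Irf3/7*-/- than in *Irf1*-/- BMDCs, where 9.84% of all genes were called (6.62% higher, 3.22% lower). These shares are given as background only, since the members were chosen with the comparisons known.

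**Figure D3:**
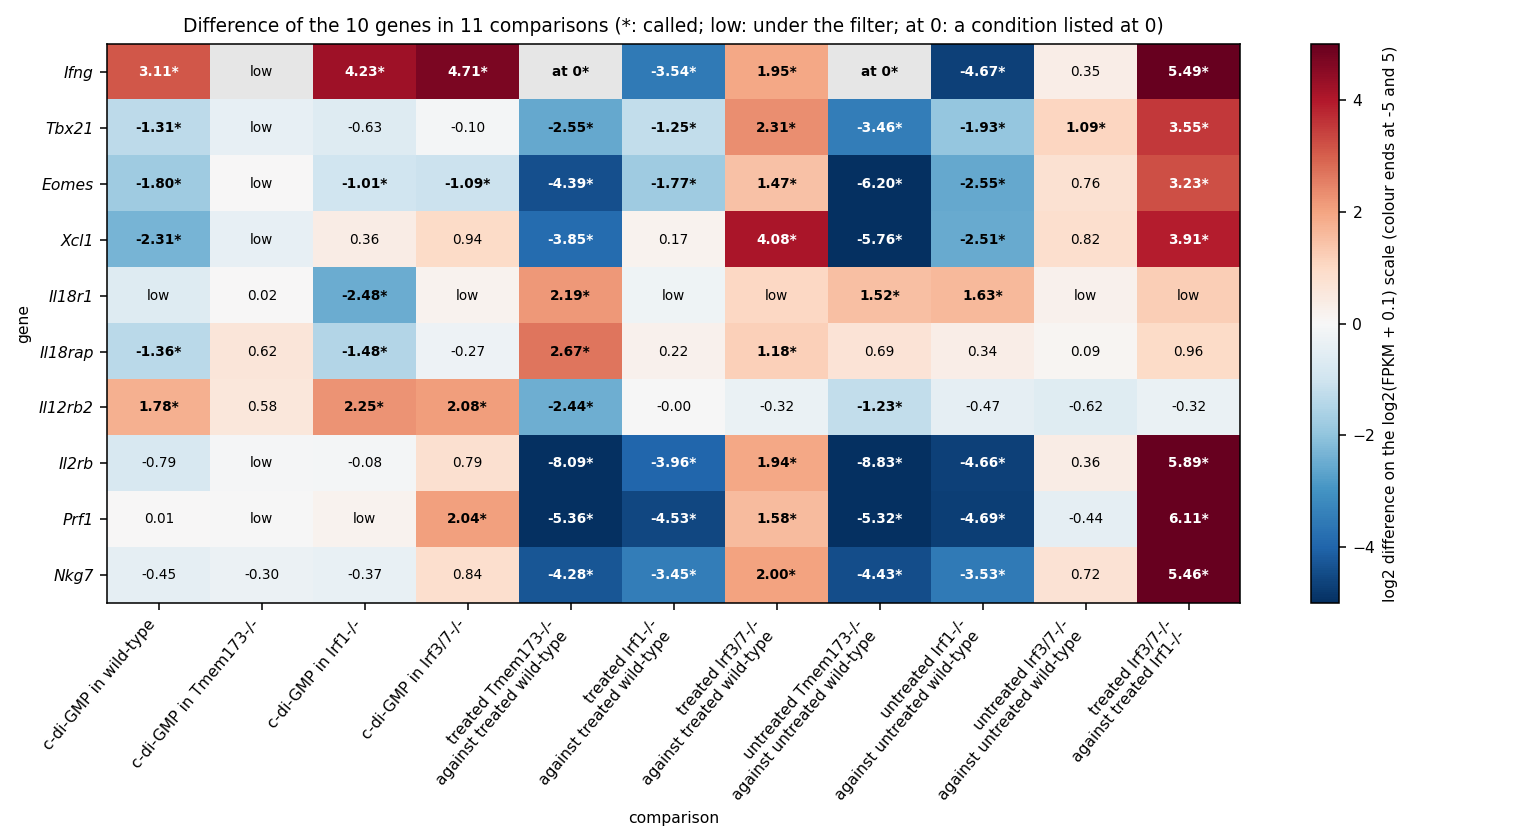
Log2 difference of each gene (rows) in each of 11 comparisons (columns) on the log2(FPKM + 0.1) scale, red for higher and blue for lower in the condition named first or with c-di-GMP, and a star for a called difference. The row of *Ifng* turns from 3.11 in wild-type to 4.71 in *Irf3/7*-/- BMDCs with c-di-GMP, and *Il12rb2* is near 0 in the columns that compare treated *Irf1*-/- and *Irf3/7*-/- with treated wild-type BMDCs.

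Nearly all measured cytokines that drive IFN-γ production rose with c-di-GMP in the genotypes that had STING. Of 13 such genes, 11 of 11 tested were higher in wild-type, 10 of 11 in *Irf1*-/- and 11 of 11 in *Irf3/7*-/- BMDCs, and none of 6 was called in *Tmem173*-/- BMDCs. Their median log2 differences were 2.82, 3.10, 4.23 and -0.10, against medians over all genes tested between -0.02 and 0.0045. Of all genes tested, 10.5%, 9.67% and 10.2% were higher in the genotypes with STING, and 0.0552% were called in *Tmem173*-/- BMDCs. *Il12b*, the shared p40 chain of IL-12 and IL-23, went from 4.59 to 148 FPKM in wild-type, from 5.73 to 49.9 FPKM in *Irf1*-/- and from 2.95 to 1474 FPKM in *Irf3/7*-/- BMDCs, and was at 0.892 and 1.57 FPKM in *Tmem173*-/- BMDCs. *Il12a*, the p35 chain of IL-12, reached 6.57 FPKM in wild-type, 3.08 FPKM in *Irf1*-/- and 37.6 FPKM in *Irf3/7*-/- BMDCs. The treated levels of both IL-12 genes and of *Ifng* had the same order over these genotypes, with the IL-12 genes lower in *Irf1*-/- and higher in *Irf3/7*-/- than in wild-type BMDCs by the call. *Cd70* and *Tnfsf9* had this order of treated levels as well, while *Ebi3*, *Tnfsf4*, *Il15*, *Il18*, *Il23a*, *Il27* and *Ifnb1* did not.

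*Il15*, which acts through *Il2rb*, reached 74.6 FPKM in wild-type, 56.2 FPKM in *Irf1*-/- and 70.1 FPKM in *Irf3/7*-/- BMDCs, and no difference between treated genotypes with STING was called for it. *Il18*, named here after its values were seen as the ligand of the IL-18 receptor, rose from 1.36 to 4.92 FPKM in wild-type BMDCs and was the 1 cytokine of the list called lower in treated *Irf3/7*-/- than in treated wild-type BMDCs, at 2.25 FPKM. *Ifnb1*, a type I interferon gene, was listed at 0 in untreated wild-type and *Irf3/7*-/- BMDCs and reached 2.93 and 22.6 FPKM with c-di-GMP. In *Irf1*-/- BMDCs it went from 0.0258 to 3.53 FPKM.

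**Figure D4:**
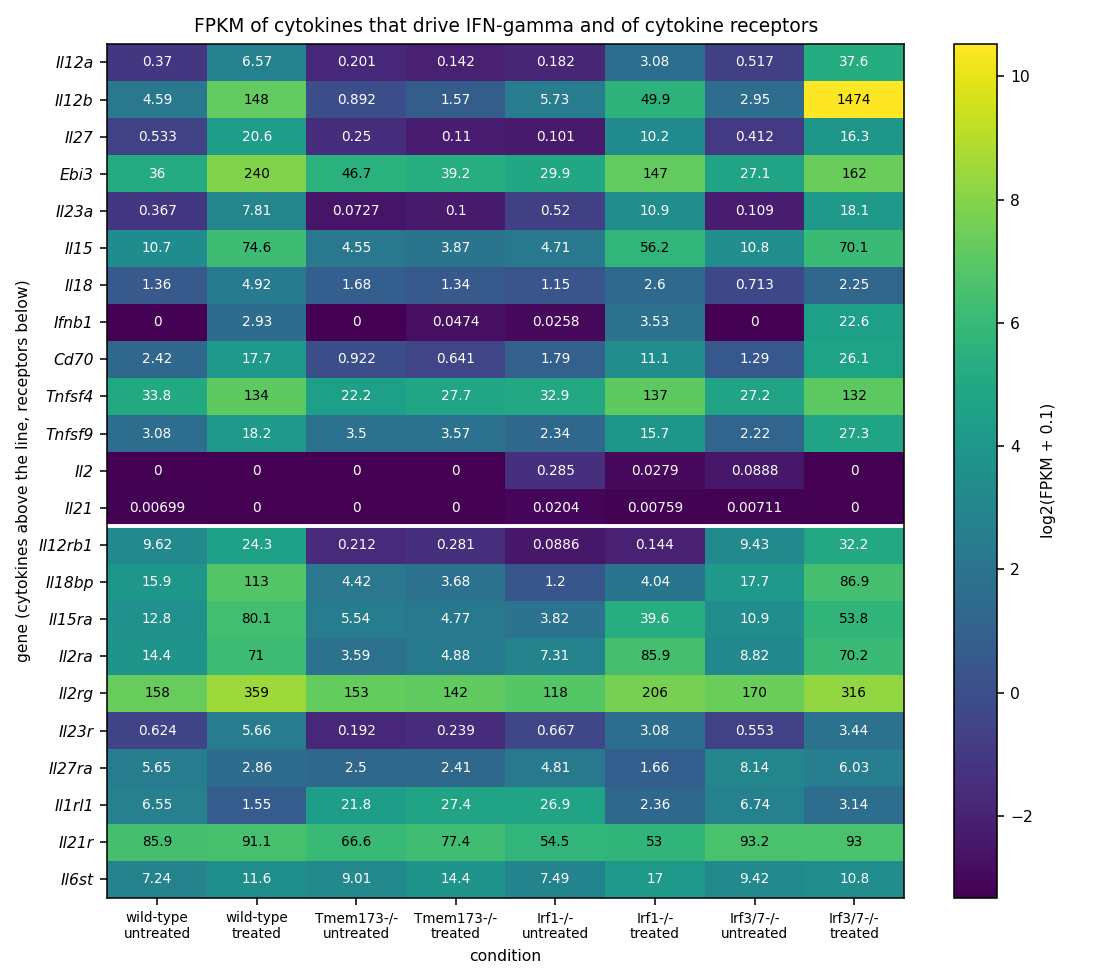
FPKM of the 13 cytokine genes (above the line) and of 10 receptor or binding-protein genes (below it) in the 8 conditions, printed in each cell and coloured by log2(FPKM + 0.1). *Il12b* spans 0.892 to 1474 FPKM, and *Il12rb1* is under 0.3 FPKM in all *Tmem173*-/- and *Irf1*-/- conditions.

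Of 19 receptor chains and adaptors of the same cytokines, members left out, 7 were higher and 1 lower of 19 tested upon c-di-GMP in wild-type BMDCs, 6 higher and 3 lower of 18 in *Irf1*-/-, and 6 higher and 1 lower of 19 in *Irf3/7*-/- BMDCs. By the same call, 10.5% of all genes tested were higher with c-di-GMP and 9.96% lower for wild-type. These background shares were 9.67% against 7.81% for *Irf1*-/-, then 10.2% against 7.68% for *Irf3/7*-/-. The partner chains of the members differed. *Il12rb1*, with which *Il12rb2* forms the IL-12 receptor, was at 24.3 FPKM in treated wild-type, 32.2 FPKM in treated *Irf3/7*-/- and 0.144 FPKM in treated *Irf1*-/- BMDCs, where *Il12rb2* had its full treated level. *Il18bp*, the secreted inhibitor of IL-18, rose from 15.9 to 113 FPKM in wild-type and from 17.7 to 86.9 FPKM in *Irf3/7*-/- BMDCs, and in *Irf1*-/- BMDCs from 1.20 to 4.04 FPKM. *Il15ra*, which presents IL-15 to *Il2rb*, rose from 12.8 to 80.1 FPKM in wild-type, and *Il2rg*, the common gamma chain, from 158 to 359 FPKM.

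Transcription factors of type 1 lymphocytes and their antagonists, *Tbx21* and *Eomes* left out, formed a list of 20. With c-di-GMP 4 were higher and 1 lower of 16 tested in wild-type, 5 higher and 1 lower of 15 in *Irf1*-/-, and 5 higher and none lower of 16 in *Irf3/7*-/- BMDCs. The shares over all genes, higher and lower in the same order, were 10.5% and 9.96%, 9.67% and 7.81%, and 10.2% and 7.68%. *Stat4*, which carries the IL-12 signal, rose from 23.3 to 55.6 FPKM in wild-type and from 23.3 to 75.2 FPKM in *Irf3/7*-/- BMDCs. *Hlx*, a partner of T-bet, fell from 21.7 to 10.3 FPKM in wild-type BMDCs. *Id2* was at 625 FPKM in treated *Irf3/7*-/- and 166 FPKM in treated wild-type BMDCs, which was called.

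Of 24 cytotoxic granule and effector genes, members left out, 8 of 22 were higher with c-di-GMP in wild-type, 5 of 18 in *Irf1*-/- and 14 of 22 in *Irf3/7*-/- BMDCs, and none was lower in these genotypes. Over all genes tested, 10.5%, 9.67% and 10.2% were higher in the same order. *Ccl5*, a chemokine of DCs and T cells, had 36577 FPKM in treated wild-type, 31790 FPKM in treated *Irf1*-/- and 9788 FPKM in treated *Irf3/7*-/- BMDCs, and it was the 1 gene of the list called lower in treated *Irf3/7*-/- than in treated wild-type BMDCs, while 9 were called higher. In treated *Irf1*-/- BMDCs 11 of 22 were lower and 1, *Ccl3*, was higher. Against treated wild-type BMDCs, 4.61% of all genes tested were higher in treated *Irf3/7*-/- and 4.91% lower in treated *Irf1*-/- BMDCs. The granzyme genes, named here after their values were seen, were already high in wild-type BMDCs without treatment. *Gzmb* was at 321 and 336 FPKM in wild-type BMDCs, 10.0 and 18.7 FPKM in *Irf1*-/- and 362 and 1242 FPKM in *Irf3/7*-/- BMDCs, and *Gzma* was listed at 0 in both *Tmem173*-/- conditions.

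The receptor of IFN-γ and genes that IFN-γ induces made up a list of 24. With c-di-GMP 13 of 24 were higher in wild-type, 18 of 23 in *Irf1*-/- and 8 of 23 in *Irf3/7*-/- BMDCs, with none lower, and none of 19 was called in *Tmem173*-/- BMDCs. Over all genes tested, 10.5% were higher in wild-type, 9.67% in *Irf1*-/- and 10.2% in *Irf3/7*-/- BMDCs. In treated *Irf3/7*-/- BMDCs, where *Ifng* was highest, 1 gene (*Nos2*) was called higher and 3 (*Ciita*, *Cxcl10* and *Ido1*) were called lower than in treated wild-type BMDCs. Of all genes tested, 4.61% were higher and 2.69% lower in that comparison. *Cxcl10*, a chemokine that type I interferons induce as well, had 1037 FPKM in treated wild-type, 483 FPKM in treated *Irf1*-/- and 315 FPKM in treated *Irf3/7*-/- BMDCs. *Gbp2* had 1036, 325 and 726 FPKM in the same order. Without c-di-GMP 17 of 23 were lower in *Irf1*-/- and 16 of 23 lower in *Tmem173*-/- than in wild-type BMDCs. The shares lower over all genes tested were 3.52% and 5.95%. The list holds *Irf1* itself, so the deleted gene is 1 of the 17 and also 1 of the 18 that were higher with c-di-GMP in *Irf1*-/- BMDCs.

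Genes whose levels over the 8 conditions were most like those of a member were searched among 9270 genes, by the root mean square of the differences in log2(FPKM + 0.1) after centring each gene. For *Ifng* the nearest was *Nos2*, the inducible nitric oxide synthase, at 1.07, followed by *Gzmb* (1.39), *Iigp1* (1.42), *Gzmc* (1.52) and *Gzma* (1.62), and *Il2rb* was the only member among the first 10, at 1.89. This measure is not scaled to the range of a gene, which was wide for *Ifng*. Its nearest distance therefore cannot show whether another gene had the same pattern. *Nkg7* had *Fasl* (0.25) and *Cd8a* (0.31) among its 3 nearest genes, and *Prf1* was nearest to *Fasl* (0.40), *Cd8a* (0.53) and *Nkg7* (0.56). *Il12rb2* lay close to *Trim25* (0.16), *Pvr* (0.18) and *Tnfsf4* (0.18), none of which is a T cell marker of the list used here. *Il18rap* was nearest to *Camk1d* (0.14), and *Il18r1* had *Il18rap* among its 3 nearest genes, at 0.40. The nearest genes were *Ptprcap* for *Tbx21* (0.37), *Gimap4* for *Eomes* (0.43), *Csf2* for *Xcl1* (0.66) and *Ctsw* for *Il2rb* (0.88).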

How the data were processed

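RNA-seq was measured in 16 BMDC samples, made with a stranded mRNA kit and paired reads. The authors aligned and quantified the reads and deposited 1 table of FPKM values by Cuffdiff (version 1.06 in the submitters' processing notes), in which the 2 samples of each condition are combined into 1 value, an interval and a status. The notes name mm9, but 21454 of 21681 uniquely named loci overlap the gene of the same name on GRCm38, so coordinates here are those of GRCm38. The methods name a strand-specific setting for a further quantification in Seqmonk, but the aligner, annotation and strand setting behind the Cuffdiff values are not given in the sources used here. Columns were matched to the labels by name, with c read as untreated and cdg or GDP as c-di-GMP. The dose is that of the labels, and other passages of the study name a higher one. The table holds 3 columns of a further knockout, which were not used.

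From the deposited FPKM, log2(FPKM + 0.1) was compared in 11 pairs of conditions among genes with status OK in both and at least 1 FPKM in either, and differences above 2-fold with intervals that did not overlap were called. The depth is unknown. The interval's median width to either side was between 25.2 and 25.7% of the value over 4723 genes with at least 10 FPKM throughout. No p-value is given, because each condition has a single value. Genes were named as the members, the 4 highest of each list and those called in wild-type BMDCs upon c-di-GMP at 10 FPKM or more. Others stand in lists of nearest profiles or of called exceptions, or were named after their values were seen. *Ncr1*, *Klrb1c*, *Cd4*, *Flt3*, *Cd209a*, *Il12a* and *Ifnb1* are among the latter, and not every such gene is marked where it is named. The members and lists were chosen with earlier results of these data known. Alternatives changed the pseudocount, the FPKM minimum, the fold, the centring and the use of intervals. Some genes of the lists are not reported here by name. Promoters came from RefSeq (GRCm38.p6) and gene positions from GENCODE M21. Python 3.11.15, NumPy 2.4.6, pandas 2.3.3 and matplotlib 3.10.9 were used.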

Additional observations from a re-analysis of the deposited data

Results flagged for a closer look

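The log2 differences of *Xcl1* with c-di-GMP had opposite signs in genotypes that both expressed it, although the intervals overlapped in *Irf3/7*-/- BMDCs. Its log2 difference was -2.31 in wild-type BMDCs, which was called, and 0.94 in *Irf3/7*-/- BMDCs, which was not, and the difference between the 2 was not tested.

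*Il18rap* also had log2 differences of opposite sign, although its intervals overlapped in *Tmem173*-/- BMDCs. Its log2 difference with c-di-GMP was -1.36 in wild-type and -1.48 in *Irf1*-/- BMDCs, both called, and 0.62 in *Tmem173*-/- BMDCs, which was not called. These differences between genotypes were not tested either.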

How the results depend on the processing

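Of 64 calls of members in 110 pairs of member and comparison, 35 were kept under all 8 alternatives, and no call changed direction. A pseudocount of 0.01 FPKM, no filter on low FPKM and the fold alone changed no call, and centring on the median added 1 (*Il18rap* between treated *Irf3/7*-/- and treated *Irf1*-/- BMDCs). A pseudocount of 1 FPKM ended 8 calls, a minimum of 5 FPKM ended 20, a threshold of 4-fold ended 19, and a threshold of 1.5-fold added 5. With 4-fold the members called numbered 2 for c-di-GMP in wild-type, 3 for c-di-GMP in *Irf1*-/-, 3 for treated *Irf3/7*-/- against treated wild-type, and 0 for untreated *Irf3/7*-/- against untreated wild-type BMDCs. With a minimum of 5 FPKM they numbered 2 for c-di-GMP in *Irf1*-/-, 5 for treated *Tmem173*-/-, 3 for treated *Irf1*-/- and 5 for untreated *Irf1*-/- against wild-type BMDCs of the same treatment. For untreated *Irf3/7*-/- against untreated wild-type BMDCs, a pseudocount of 1 FPKM gave 0 and 1.5-fold gave 2. The shares over all genes at these settings are not given here, so these counts only describe how the member calls depend on the setting. Of the genes with the nearest profiles, 7 of 10 for *Ifng* and 3 of 3 for *Il12rb2*, *Il18rap* and *Xcl1* were the same with a pseudocount of 1 FPKM, but 0 of 3 for *Tbx21*, *Prf1* and *Il18r1*. With a pseudocount of 0.01 FPKM 8 of 10 were the same for *Ifng* and 0 of 3 for *Il2rb* and *Xcl1*. No paired analysis was possible because the 2 samples of each condition were combined by the authors, and for the same reason no sample could be left out in turn.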
